A study of Arabidopsis thaliana with 48 samples.

Results

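The average difference between the *myc2-3* mutant and the complemented MYC2–FLAG line was measured in shoots of *Arabidopsis thaliana* by RNA sequencing. All 24 shoot libraries of the 48 libraries entered the comparison, 12 from *myc2-3* and 12 from MYC2–FLAG. *myc2-3* is a T-DNA insertion mutant of MYC2, and MYC2–FLAG is *jin1-8* pMYC2::MYC2–FLAG, a line labelled myc2-Flag where the native MYC2 promoter drives a tagged MYC2 protein on a *myc2* mutant background. Both lines therefore carry a disrupted MYC2 gene, and no wild-type plants were part of the comparison. Plants of both genotypes were 5 weeks old, grew in the gnotobiotic FlowPot system and were either germ-free (−BFO) or inoculated with a synthetic community of bacteria, fungi and oomycetes (+BFO), under the control light level (NC, labelled Normal) or under low photosynthetically active radiation (LP, labelled Shade). Each genotype was represented by 3 replicate libraries for germ-free and inoculated plants at both light levels, giving 4 conditions (listed below in the order NC −BFO, NC +BFO, then LP in the same order). The average effect is the mean of the 4 *myc2-3* group means minus the mean of the 4 MYC2–FLAG group means on the log2 scale, so each condition had equal weight. Positive values mean higher in *myc2-3*.

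MYC2 is a basic helix-loop-helix transcription factor that binds G-box sequences and switches on many jasmonate-responsive genes. JAZ proteins hold it inactive until the jasmonate receptor marks them for degradation, and MYC2 favours the wound-response branch of jasmonate signalling over the ethylene-dependent branch with its plant defensins. The plant circadian clock is a set of interlocked repressors. CCA1 and LHY peak around dawn and repress genes that carry an evening element in their promoters, PRR9, PRR7, PRR5 and TOC1 follow in turn through the day, and the evening complex of ELF3, ELF4 and LUX acts at dusk.

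Each genotype was sequenced in a project of its own, so genotype and sequencing project cannot be told apart in any value below. The average does not change if condition labels are exchanged between whole groups of a genotype. It can change if single libraries move between groups, and effects within a condition rest on the labels as given. As a description over 21098 genes, the mean profiles of the 2 genotypes under the same label, each taken relative to the mean of its genotype, had a correlation of -0.330 for NC −BFO, 0.594 for NC +BFO, 0.703 for LP −BFO and -0.673 for LP +BFO. Across labels, *myc2-3* NC −BFO and MYC2–FLAG LP +BFO reached 0.820. Effects by condition are therefore given below only as the labels state them. A *myc2-3* shoot library held 5162823 to 8970837 gene counts and a MYC2–FLAG one 6654213 to 9670523. Organellar genes took 1.04% to 3.13% of gene counts in *myc2-3* and 0.629% to 1.52% in MYC2–FLAG, and their part in the results was not tested beyond the fit without them. The summed level of 5 leaf markers, as CPM (counts scaled by TMM to a common library size), was 50820 to 77372 for *myc2-3* shoots and 41507 to 74039 for MYC2–FLAG shoots. That of 11 root markers was 139 to 583 and 193 to 713, against 2275 to 6824 in roots, and 8 of the 11 were under 1 CPM in the shoots of both genotypes.

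MYC2 transcript was lower in every *myc2-3* shoot library than in every MYC2–FLAG shoot library. For MYC2 (AT1G32640) the lowest, median and highest of the 12 libraries were 5.48, 8.64 and 17.8 CPM in *myc2-3*, and 54.3, 109 and 410 CPM in MYC2–FLAG. The MYC2–FLAG libraries spread most under LP +BFO, at 241 ± 176 CPM (SD, n = 3), and least under LP −BFO, at 55.2 ± 1.29 CPM. The average log2 fold change was -3.71 (SE 0.20, adjusted p = 4.84e-18), with -3.23, -3.68, -2.99 and -4.92 in the 4 conditions. These values count reads on any MYC2 exon, from the disrupted gene and from the transgene alike. MYC2 fell less in roots, by 2.27 on the log2 scale, and the difference between shoots and roots was -1.44 (SE 0.26, adjusted p = 8.88e-05). Of the 10 genes next to MYC2, the 3 with enough counts did not pass the test. AT1G32610 had a log2 fold change of 0.31 (adjusted p = 0.275), AT1G32630 of 0.25 (adjusted p = 0.0563) and AT1G32690 of -0.28 (adjusted p = 0.244).

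Across the transcriptome, 392 of 21098 genes were called in edgeR's quasi-likelihood test, or 1.86% of those tested. A call required a 2-fold difference or more and, after Benjamini-Hochberg adjustment, a p under 0.05. Of these, 207 were higher (0.981%) and 185 were lower (0.877%) in *myc2-3*. At the same adjusted p with no limit on size, 6181 genes differed, 3033 higher (14.4%) and 3148 lower (14.9%), and 38.3% of genes had an unadjusted p under 0.05. The median log2 fold change of all genes was 0.01. Genes called higher were mostly rare transcripts. Their median count per library was 14.4, against 91.7 for genes called lower, and 54 of 207 and 108 of 185 had a mean count of at least 50. The genes closest to the 2-fold limit were *AT1G65486* at 1.001, *MRU1* at 1.001 and *PUP1* at -1.001 inside it, and *AT5G17460* at -0.9987, *PME3* at -0.997 and *AT3G09440* at -0.996 outside it.

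Genotype accounted for a share of 0.0731 of the variance of shoot transcriptomes (permutation test on distances between libraries, p = 0.00263). Its interaction with light accounted for 0.171, that with microorganisms for 0.1005, and the residual for 0.252. On CPM without the log the 4 shares were 0.115, 0.097, 0.0543 and 0.128, and with Bray-Curtis dissimilarities 0.111, 0.221, 0.102 and 0.144. The genotype effect differed among the 4 conditions for 12140 genes, or 57.5% of the genes tested, by adjusted p alone. Among the called genes, 276 of 392 (70.4%) differed in this way. Of the genes called higher 90 of 207 kept their sign in all 4 conditions (43.5%), and of those called lower 122 of 185 did (65.9%), beside 12.7% of all genes tested. A 2-fold difference in each of the 4 conditions with the same sign was found for 7 genes called higher and 23 called lower. Most genes called higher thus did not keep the same sign under all 4 labels as given. An estimate of exactly 0 in a condition also counted as not keeping the sign.

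Values of all 12 *myc2-3* libraries lay below all 12 of MYC2–FLAG for 54 genes (0.256% of those tested) and above them for 6 genes (0.0284%). With the call added, 32 genes were lower and 4 were higher. The 12 largest falls among called genes that did not overlap and averaged 50 or more counts were those of *MYC2* and the genes described next, with *PRR5*, *PRR3* and *PWD* further below. No gene that was higher met the same conditions.

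Proteins with a CCT domain, found in CONSTANS and in the pseudo-response regulators of the clock, made up 5 of these 12. They were grouped after their values were seen, and the share of such genes among all genes tested was not counted. Of 26 tested B-box and CONSTANS-like genes, *COL9* and *BBX8* among them, 5 were called higher and 4 lower, beside 0.981% and 0.877% of all genes. Their median log2 fold change was 0.22. *AT1G07050*, a CCT motif family gene, fell furthest of the 12. It had 0.326, 1.27 and 3.45 CPM as lowest, median and highest *myc2-3* values and 5.50, 21.7 and 41.7 CPM in MYC2–FLAG, and its log2 fold change was -3.89 (SE 0.20, adjusted p = 2.62e-21). Its effect was of like size under every label, from -4.34 to -3.41, and the test of a difference among conditions gave an adjusted p of 0.534. *COL9* (AT3G07650), a CONSTANS-like gene described as a repressor of flowering, had 1.04, 3.402 and 5.75 CPM in *myc2-3* and 6.44, 19.2 and 35.4 CPM in MYC2–FLAG. Its log2 fold change was -2.39 (SE 0.11, adjusted p = 4.51e-21), and it went from -4.41 under NC −BFO to -0.46 under LP +BFO. *BBX8* (AT5G48250), a B-box protein with a CCT domain, showed the same order, from -3.66 under NC −BFO to -0.88 under LP +BFO. Its average was -2.32 (SE 0.12, adjusted p = 1.13e-18), with 1.78 to 11.96 CPM in *myc2-3* and 13.7 to 50.2 CPM in MYC2–FLAG. The other two were *PRR5* and *PRR3*, described with the clock.

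The calcium pump *ACA8* (AT5G57110), a calmodulin-regulated ATPase that exports calcium across the plasma membrane, differed in shoots and not detectably in roots. In *myc2-3* shoots it had 7.59, 13.2 and 18.7 CPM as lowest, median and highest values, and in MYC2–FLAG shoots 57.0, 83.2 and 125 CPM. No *myc2-3* library reached the lowest MYC2–FLAG value. The average log2 fold change was -2.73 (SE 0.09, adjusted p = 1.67e-24), from -3.48 under NC −BFO to -2.41 under NC +BFO. In roots the mean levels of 179 CPM (*myc2-3*) and 186 CPM (MYC2–FLAG) differed by -0.08 on the log2 scale (SE 0.08, adjusted p = 0.517). The difference between the organs was -2.65 (SE 0.12, adjusted p = 2.82e-19).

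*AT5G23240*, which encodes a protein with a DNAJ domain of the kind that recruits HSP70 chaperones, had 10.2, 23.3 and 38.9 CPM in *myc2-3* and 71.0, 169 and 249 CPM in MYC2–FLAG. It fell by 2.75 on the log2 scale (SE 0.12, adjusted p = 2.48e-21), with between -3.25 and -2.18 in each condition. *AT2G21130*, a cyclophilin that helps proline bonds to isomerise, had 2.37 to 9.66 CPM in *myc2-3* and 16.9 to 51.1 CPM in MYC2–FLAG. Its log2 fold change was -2.24 (SE 0.12, adjusted p = 1.17e-18). *PDC2* (AT5G54960), a pyruvate decarboxylase of ethanol fermentation, had 17.9 to 90.5 CPM in *myc2-3* and 99.8 to 290 CPM in MYC2–FLAG, and fell by 2.02 (SE 0.12, adjusted p = 1.61e-17). *AT4G16146*, annotated as a relative of the cAMP-regulated phosphoprotein 19, fell by 1.74 (SE 0.10, adjusted p = 3.68e-17), and its highest *myc2-3* value of 24.4 CPM lay just under its lowest MYC2–FLAG value of 29.5 CPM.

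**Figure D1:**
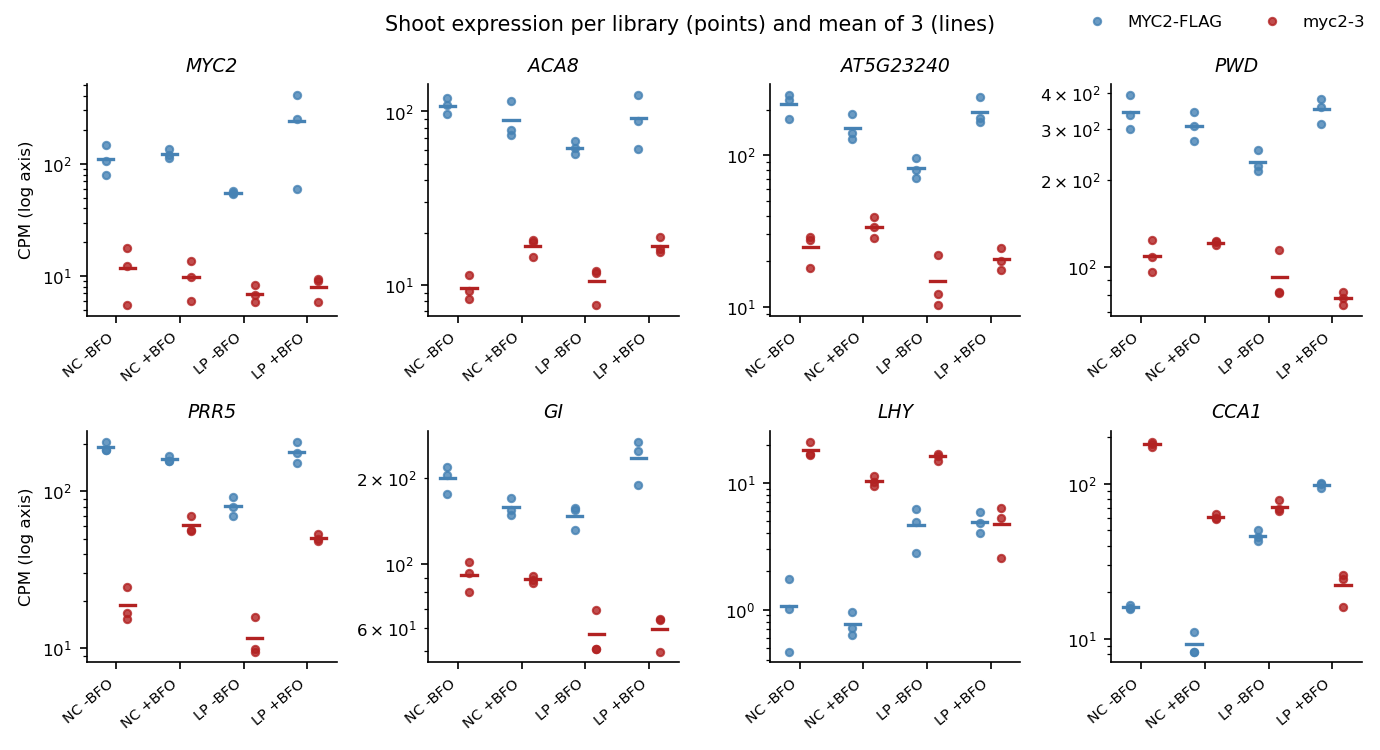
CPM on a log axis in each shoot library (points) and the mean of 3 libraries (lines) for 8 genes, by condition and genotype. For *MYC2*, *ACA8*, *AT5G23240*, *PWD*, *PRR5* and *GI* all 12 *myc2-3* points lie below all 12 MYC2–FLAG points, whereas *LHY* and *CCA1* overlap and *CCA1* is lower in *myc2-3* under LP +BFO.

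Of the 24 gene lists, the circadian clock list held the most calls. Of its 19 members, all of them tested, 3 were called higher and 8 lower, beside 1.86% of all genes called. The effect differed among conditions for 18 of the 19. The authors' methods give the same morning hour for all harvests, so a change in level and a shift in phase cannot be told apart. Those called higher were *LHY*, *RVE8* and *CCA1*, and those called lower were *ELF4*, *FKF1*, *PRR3*, *BOA*, *PRR5*, *LUX*, *TOC1* and *GI*.

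*LHY* (AT1G01060), a MYB-like repressor of the dawn loop, rose most. It had 2.53, 13.2 and 21.2 CPM as lowest, median and highest values in *myc2-3* and 0.463, 2.26 and 6.23 CPM in MYC2–FLAG, with overlap. The average log2 fold change was 2.41 (SE 0.19, adjusted p = 6.53e-13). By condition it was 4.11 and 3.71 at NC without and with BFO, and 1.80 and 0.02 at LP. *CCA1* (AT2G46830), its close partner, had 180 ± 6.80 CPM (SD, n = 3) in *myc2-3* and 16.1 ± 0.55 CPM in MYC2–FLAG under NC −BFO. Under LP +BFO the order was opposite, at 22.2 ± 5.32 and 98.0 ± 3.92 CPM. Its average of 1.18 (SE 0.13, adjusted p = 2.44e-09) thus joined effects from 3.48 to -2.12, and without NC −BFO it was 0.41 and without NC +BFO 0.66, below the 2-fold limit. *RVE8* (AT3G09600), a related activator of afternoon and evening genes, had an average of 1.32 (SE 0.15, adjusted p = 3.88e-09), with 3.15 under NC −BFO and -0.72 under LP +BFO, and of 0.71 without NC −BFO. *PRR9*, the first of the pseudo-response regulators in the day, did not reach the limit at 0.83 (adjusted p = 1.84e-07), with 4.37 under NC −BFO and -2.64 under LP +BFO.

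The pseudo-response regulators, which repress *CCA1* and *LHY* in turn through the day, were called lower in 3 cases. *PRR5* (AT5G24470) had 9.49, 36.5 and 69.4 CPM in *myc2-3*, and 70.0, 163 and 208 CPM in MYC2–FLAG, so that the highest and the lowest value of the 2 groups almost met. Its log2 fold change was -2.33 (SE 0.08, adjusted p = 1.66e-25), from -3.32 under NC −BFO to -1.40 under NC +BFO. *PRR3* (AT5G60100), a partner that stabilises TOC1, had 1.47 to 13.8 CPM in *myc2-3* and 14.0 to 56.5 CPM in MYC2–FLAG, and a log2 fold change of -2.51 (SE 0.11, adjusted p = 2.62e-21). *TOC1* (AT5G61380), the evening repressor, was called at -1.39 (SE 0.06, adjusted p = 6.32e-21), with overlap between 14.7 to 50.4 CPM and 44.0 to 130 CPM, and it was -0.92 without NC −BFO. *PRR7* had -0.18 (adjusted p = 0.0159), an average under 2-fold.

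Among the genes of the evening complex and their relatives, 3 were called lower. *ELF4* (AT2G40080) had 0.00, 0.171 and 0.557 CPM in *myc2-3* and 1.36, 4.69 and 7.27 CPM in MYC2–FLAG, with a mean of only 15.2 counts per library. Its log2 fold change was -4.40 (SE 0.33, adjusted p = 1.08e-15), and no difference among conditions was detectable at this depth (adjusted p = 0.371). *LUX* (AT3G46640), the DNA-binding subunit, had 4.3 ± 1.53 CPM in *myc2-3* against 97.5 ± 8.28 CPM in MYC2–FLAG under NC −BFO (SD, n = 3), and 27.8 ± 5.54 against 23.3 ± 1.46 CPM under LP +BFO. Its average was -2.04 (SE 0.08, adjusted p = 1.98e-22). *BOA* (AT5G59570), a close relative of *LUX*, showed the same pattern, from -5.12 to 1.06 with an average of -2.36 (SE 0.47, adjusted p = 1.06e-04), at a mean of 11.96 counts per library. *ELF3*, the scaffold of the complex, lay just outside the limit at -0.99 (SE 0.05, adjusted p = 4.54e-18), and 6 of the 24 fits without 1 library brought it to the limit, at between -1.016 and -1.0001.

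Among the regulators of flowering and clock protein stability, *FKF1* (AT1G68050), a blue-light receptor that targets repressors of *CONSTANS*, fell by 4.39 on the log2 scale (SE 0.13, adjusted p = 5.58e-27). Its mean levels were 0.33 ± 0.20 CPM in *myc2-3* and 20.7 ± 4.31 CPM in MYC2–FLAG at LP −BFO, against 12.1 ± 4.26 and 46.6 ± 13.3 CPM when BFO was present (SD, n = 3). One *myc2-3* library at 17.0 CPM overlapped the lowest MYC2–FLAG library. *GI* (AT1G22770), the partner of FKF1 and ZTL, was lower without overlap, at 49.7, 74.9 and 102 CPM against 131, 173 and 267 CPM, with a log2 fold change of -1.32 (SE 0.06, adjusted p = 2.00e-20). Its range over the conditions, from -1.97 to -0.83, was the narrowest among the called clock genes. *ZTL*, which is regulated mainly at the protein level, had 0.01 (SE 0.06, adjusted p = 0.959).

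**Figure D2:**
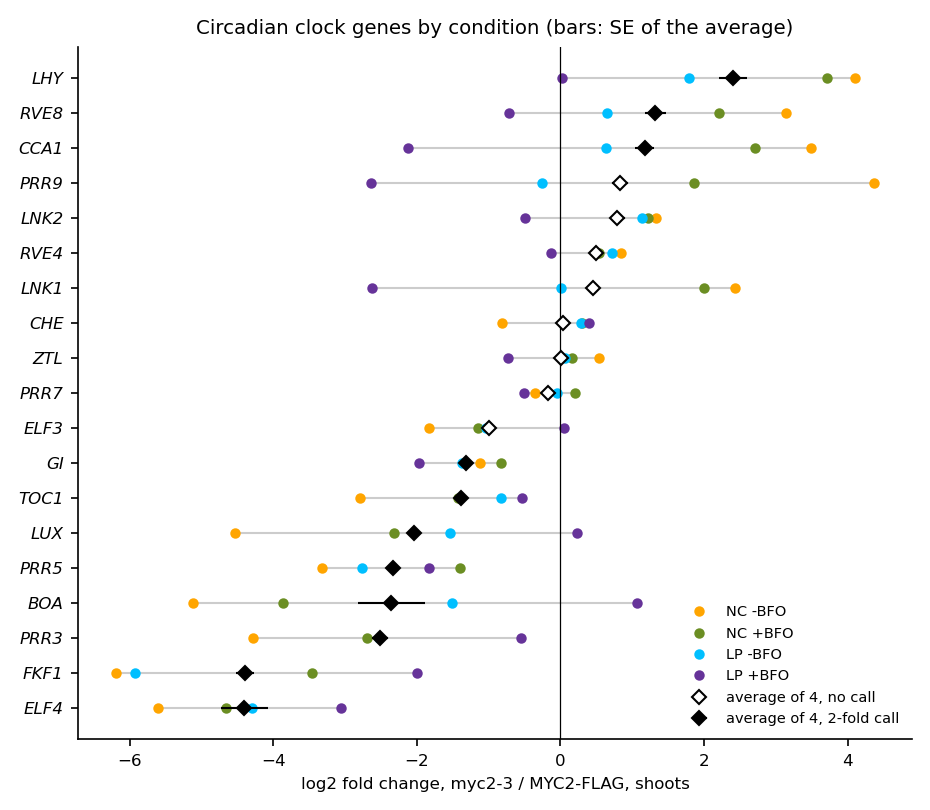
Log2 fold change of *myc2-3* over MYC2–FLAG in shoots for the 19 clock genes, for each condition (coloured points) and averaged over the 4 (diamonds, filled where called, bars the SE). *LHY*, *RVE8* and *CCA1* lie to the right on average with LP +BFO to the left of the other conditions, and the 8 genes called lower run from *GI* at -1.32 to *ELF4* at -4.40.

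The evening element is the sequence through which CCA1, LHY and the RVE proteins bind evening genes, and the G-box is the site of MYC2 and other basic helix-loop-helix and bZIP factors. Promoters of 3 genes called lower are shown because they hold the evening element in different places, together with that of *TOC1*, the gene through which the element's role is best known. They are the 300 bases before the annotated start in RefSeq's TAIR10.1 assembly, in the direction of the gene, with evening elements (AAAATATCT on either strand) and G-boxes (CACGTG) in capitals.
PRR5, chromosome 5, minus strand: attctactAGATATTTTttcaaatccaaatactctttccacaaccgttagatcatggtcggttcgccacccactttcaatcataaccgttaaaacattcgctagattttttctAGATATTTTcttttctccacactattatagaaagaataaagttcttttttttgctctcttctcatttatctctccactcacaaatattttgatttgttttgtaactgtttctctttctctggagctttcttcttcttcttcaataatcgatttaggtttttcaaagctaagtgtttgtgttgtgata
BBX8, chromosome 5, minus strand: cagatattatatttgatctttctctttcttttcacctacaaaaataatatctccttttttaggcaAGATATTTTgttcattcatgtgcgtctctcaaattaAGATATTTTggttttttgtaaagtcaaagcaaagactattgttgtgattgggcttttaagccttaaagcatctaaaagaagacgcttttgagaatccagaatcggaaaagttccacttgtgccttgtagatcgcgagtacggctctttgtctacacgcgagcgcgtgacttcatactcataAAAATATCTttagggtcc
LUX, chromosome 3, plus strand: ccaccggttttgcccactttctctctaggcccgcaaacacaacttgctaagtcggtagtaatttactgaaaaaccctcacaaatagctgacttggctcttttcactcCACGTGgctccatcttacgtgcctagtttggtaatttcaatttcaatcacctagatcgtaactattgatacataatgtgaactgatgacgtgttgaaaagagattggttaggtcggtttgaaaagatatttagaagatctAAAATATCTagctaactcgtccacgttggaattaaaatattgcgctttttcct
TOC1, chromosome 5, plus strand: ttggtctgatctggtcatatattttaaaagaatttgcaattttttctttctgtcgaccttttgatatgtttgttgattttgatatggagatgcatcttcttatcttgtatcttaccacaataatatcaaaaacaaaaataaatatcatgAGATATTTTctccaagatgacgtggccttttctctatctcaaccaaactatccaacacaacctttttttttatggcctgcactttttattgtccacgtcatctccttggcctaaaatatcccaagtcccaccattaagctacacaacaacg

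*BBX8* held 3 evening elements, with first bases 235, 199 and 18 before the start, *PRR5* held 2, at 292 and 187, and *LUX* and *TOC1* held 1 each, at 53 and 151. *LUX* also held a G-box. Over the 20960 tested genes with a promoter in the reference, 2.85% held at least 1 evening element (598 genes). Of the 185 genes called lower 30 did (16.2%), and of the 187 genes called higher with a promoter 2 did (1.07%). The share was 28.1% among the 32 genes called lower without overlap (9 genes), and 5 of the 8 clock genes called lower held one. *FKF1* and *BOA* were the others of these 5 beside *PRR5*, *LUX* and *TOC1*. The G-box, on both strands the same sequence, was held by 7.84% of all promoters, 9.09% of those called higher and 14.1% of those called lower. For the W-box (TTGACC or TTGACT) the shares were 32.5%, 34.2% and 25.4%, for the GCC-box (GCCGCC) 2.39%, 2.67% and 4.32%, and for the as-1 core (TGACG) 22.02%, 27.3% and 27.03%, each searched on both strands. These shares describe letters in a window, and a match is not a bound site.

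**Figure D3:**
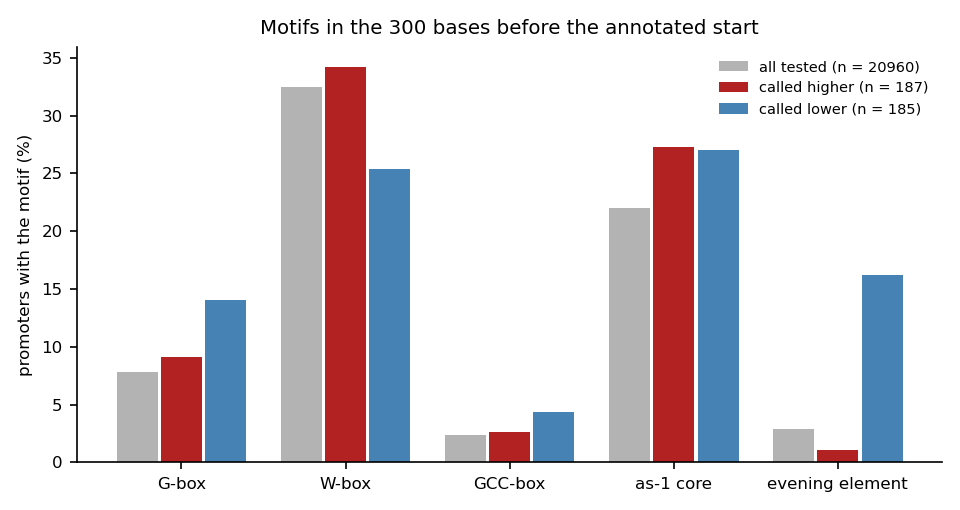
Percentage of promoters of 300 bases that hold each of 5 motifs on either strand, for all tested genes (grey), genes called higher (red) and genes called lower (blue) in *myc2-3* shoots. The evening element stands at 2.85%, 1.07% and 16.2% in the 3 sets.

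Starch genes were lower in part. Of the 19 members of the starch metabolism list, 2 were called lower and 13 in all were lower at the adjusted p alone, beside 0.877% and 14.9% of all genes. The median log2 fold change was -0.56 (all genes 0.01). By condition the list's median was 0.03 and -0.04 at NC without and with BFO, and -0.41 and -1.37 at LP. The effect differed among conditions for 18 of the 19 members, beside 57.5% of all genes tested. The called members encode both kinases that attach phosphate to the starch granule and so open it to amylases. *PWD* (AT5G26570) had 73.6, 102 and 124 CPM in *myc2-3* and 214, 310 and 394 CPM in MYC2–FLAG, without overlap and with a log2 fold change of -1.62 (SE 0.06, adjusted p = 5.65e-23). *GWD1* (AT1G10760) had 253, 502 and 639 CPM against 630, 1016 and 1496 CPM, which overlapped only at their edge, and a log2 fold change of -1.21 (SE 0.07, adjusted p = 5.00e-18). Its effect was -2.32 under LP +BFO, and without that condition the average was -0.83. Several partners lay under the 2-fold limit with the same sign: *PGM1* at -0.99 (adjusted p = 1.53e-19), *SEX4*, a phosphatase that removes the phosphate again, at -0.77 (adjusted p = 3.31e-10), and *PHS1* at -0.64 (adjusted p = 1.37e-11). *GBSS1*, the enzyme of amylose synthesis, went the other way at 0.73 (adjusted p = 7.68e-08).

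Few jasmonate genes were called on average. None of the 12 JAZ repressor genes was called by edgeR, limma-voom or DESeq2, with 4 at an unadjusted p under 0.05 in edgeR (38.3% of all genes) and a median log2 fold change of -0.32. By condition the JAZ median was -1.03 and 0.33 at NC without and with BFO, and 0.20 and -0.59 at LP. *JAZ2* had -0.42 (adjusted p = 0.00318), and *JAZ10*, a usual readout of MYC2 activity, had -0.49 (SE 0.23, adjusted p = 0.116). This *JAZ10* average joined -3.11 under NC −BFO with values between -0.03 and 0.63 in the other conditions. Of 13 biosynthesis genes tested, 7 were lower at the adjusted p alone and 1 was called, beside 14.9% and 1.86% of all genes. *AOC2* (AT3G25770), an allene oxide cyclase, had 157 ± 102 CPM in *myc2-3* and 355 ± 261 CPM in MYC2–FLAG (SD over 12 libraries of 4 conditions), with a log2 fold change of -1.16 (SE 0.17, adjusted p = 9.45e-07). Without NC −BFO it was -0.82, and without LP +BFO -0.985.

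Of the 12 outputs of the MYC branch, 2 were called lower and 7 were lower at the adjusted p alone, beside 0.877% and 14.9% of all genes, with a median of -0.64. *VSP2* (AT5G24770), a storage protein and classical MYC2 target, had medians of 3.78 CPM in *myc2-3* and 5.06 CPM in MYC2–FLAG, and maxima of 14.2 and 40.4 CPM. Its average of -1.11 (SE 0.28, adjusted p = 0.00209) came with -4.14 under LP +BFO and between -0.68 and 0.23 in the other conditions, and was -0.10 without LP +BFO. Leaving out replicate 2 of *myc2-3* LP −BFO brought it to -0.99. *TPS03* (AT4G16740), a terpene synthase, was counted at a mean of 9.58 per library, with 0.00 to 2.38 CPM in *myc2-3* and 0.00 to 12.3 CPM in MYC2–FLAG. Its log2 fold change of -2.62 (SE 0.91, adjusted p = 0.0306) was lost in DESeq2 (adjusted p = 0.477), and without replicate 3 of MYC2–FLAG LP −BFO it was -1.69. Without replicate 2 of MYC2–FLAG NC +BFO it was -2.44 with an adjusted p of 0.0737, and without LP +BFO it was -1.14 (adjusted p = 0.467).

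The ethylene-dependent branch, which MYC2 is known to hold back, was not higher on average. Of its 8 tested genes 3 were called, all lower (0.877% of all genes), and the list's median was -1.05. *CHIB* (AT3G12500), a basic chitinase, had medians of 2.68 CPM in *myc2-3* and 5.56 CPM in MYC2–FLAG and a log2 fold change of -1.23 (SE 0.18, adjusted p = 7.41e-07), with the same sign in each condition. It was -0.77 without NC −BFO and -0.98 with libraries thinned to the smallest total, both under the limit. The plant defensins *PDF1.3* and *PDF1.2*, near-identical copies, turned sign between conditions. Reads that fit both copies equally may be missing from their counts. *PDF1.3* (AT2G26010) had -4.97 under NC −BFO and 1.34 under LP +BFO around an average of -1.59 (SE 0.37, adjusted p = 0.00144), and -0.46 without NC −BFO. *PDF1.2* (AT5G44420) had -5.66 and 2.50 around -1.21 (SE 0.43, adjusted p = 0.0315). Its call was lost in limma-voom (adjusted p = 0.0798), with the shoot libraries fitted alone (adjusted p = 0.0544), with thinned libraries (adjusted p = 0.0754) and in 5 fits without 1 library: replicate 1 or 2 of MYC2–FLAG LP +BFO, replicate 1 or 3 of *myc2-3* NC −BFO, or replicate 2 of *myc2-3* LP −BFO. In those 5 the average stayed between -1.15 and -1.12.

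Of 23 aliphatic and 18 indole glucosinolate genes tested, 1 was called, a share near that of all genes (1.86%). At the adjusted p alone, 9 of the 18 indole genes were lower and 0 higher, beside 14.9% and 14.4% of all genes. Their median log2 fold change was -0.37, from -1.36 under NC −BFO to 0.56 under LP +BFO. Of the aliphatic genes 3 were lower and 3 higher at the adjusted p alone. Their median was 0.01, from 1.44 under NC −BFO to -1.15 under LP +BFO. *IGMT5* (AT1G76790), an indole glucosinolate methyltransferase, had 0.889, 3.04 and 5.06 CPM in *myc2-3* and 3.94, 13.1 and 24.6 CPM in MYC2–FLAG. Its log2 fold change was -2.06 (SE 0.23, adjusted p = 2.40e-09) and ran from -2.35 to -1.82 in the 4 conditions, with an adjusted p of 0.950 for a difference among them. In roots it was 0.47 (SE 0.13, adjusted p = 0.00763), of opposite sign, and the organs differed by -2.54 (SE 0.26, adjusted p = 2.09e-09). *GSTF9*, a glutathione transferase on the same list, had -0.99 (adjusted p = 2.83e-12), just under the limit.

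In 3 further lists, each called gene lost its call when a single condition was left out. *GSTU4* (AT2G29460), a glutathione transferase of the oxylipin-responsive list, averaged -1.50 (SE 0.33, adjusted p = 4.76e-04), and -0.59 without NC −BFO. *GSTU1* (AT2G29490) averaged -1.04 (SE 0.35, adjusted p = 0.0196) over effects of 2.48, 1.01, -0.92 and -6.74. Its call was lost in limma-voom (-0.73) and in 5 fits without 1 library, at -0.98 to -0.68: replicate 3 of MYC2–FLAG LP +BFO, replicate 2 of MYC2–FLAG NC −BFO or NC +BFO, replicate 2 of *myc2-3* NC −BFO or replicate 1 of *myc2-3* NC +BFO. *AT4G12490*, a lipid-transfer-like protein of the tandem cluster around *AZI1* and *EARLI1*, averaged 1.84 (SE 0.52, adjusted p = 0.0055) over -5.06, -0.30, 3.39 and 9.32. It was 1.24 without replicate 2 of *myc2-3* LP −BFO (adjusted p = 0.0835) and 1.32 without LP −BFO (adjusted p = 0.0834). *BIP3* (AT1G09080), a chaperone of the endoplasmic reticulum induced when unfolded proteins build up, averaged 1.33 (SE 0.34, adjusted p = 0.00257), with 2.63 and 3.21 at LP without and with BFO, and -0.50 and -0.01 at NC. It was 0.90 without LP −BFO (adjusted p = 0.0722) and 0.71 without LP +BFO (adjusted p = 0.171).

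In total 24 of 355 tested members of the 24 lists were called, beside 1.86% of all genes, and 15 lists held no call in edgeR. Beside 38.3% of all genes at an unadjusted p under 0.05, these included salicylic acid and systemic resistance, with 10 of 27 members at an unadjusted p under 0.05, 1 call each in limma-voom and DESeq2, and a median of 0.31, and antiviral RNA silencing, with 5 of 17 at an unadjusted p under 0.05 and no call in the other tools. Light harvesting, photosystems and Rubisco had 9 of 27 members at that unadjusted p, no call in the other tools and a median of 0.18. *LHCB2.4*, a chlorophyll-binding antenna protein, was its largest at 0.86 (adjusted p = 3.46e-07). The levels of bulk shoots cannot separate fewer cells of a kind from less RNA per cell.

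**Figure D4:**
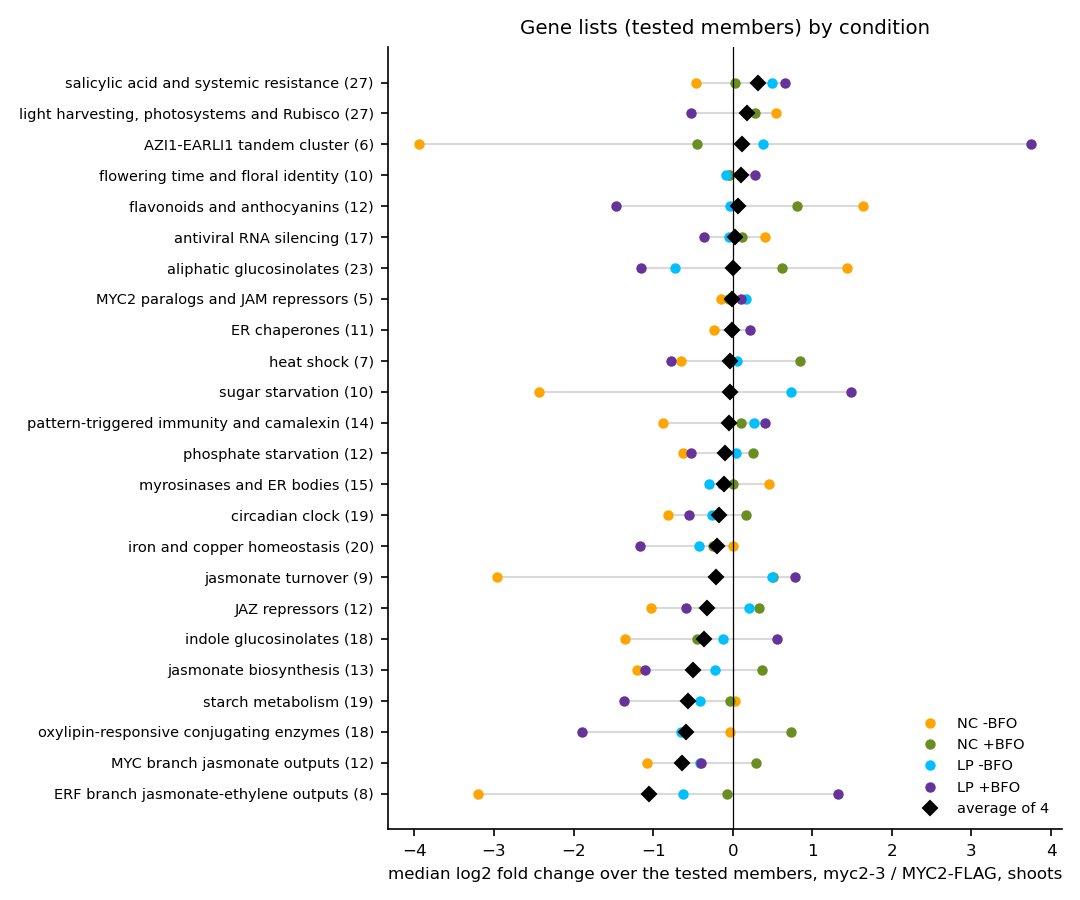
Median log2 fold change of *myc2-3* over MYC2–FLAG in shoots over the tested members of 24 gene lists (their number in brackets), for each condition (coloured points) and for the average (diamonds). The averages lie between -1.05 for the ERF branch and 0.31 for salicylic acid genes, while single conditions spread further, as for the AZI1-EARLI1 cluster.

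Genes higher in *myc2-3* without overlap were few and are named here after their values were seen. *AT2G28240*, annotated as an ATP-dependent helicase family gene, had no counts in any of the 12 MYC2–FLAG shoot libraries and 42 to 139 counts in each *myc2-3* shoot library, a mean of 15.4 ± 3.43 CPM. Against a floor of 3 counts over the 12 libraries this is at least 405-fold higher. In roots the 12 MYC2–FLAG libraries held 12 counts in all and each *myc2-3* library 120 to 248 counts. Of the called genes, 3 had no counts in the shoots of one genotype. The other two were *AT5G15360*, at least 15.5-fold higher with 0 to 13 counts in a *myc2-3* library, and *AT4G21745*, at least 4.39-fold higher with 0 to 2 counts, and both had counts in MYC2–FLAG roots (11 and 49 in all).

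The remaining genes above without overlap were *AT2G05914*, a non-coding RNA, with 2.76 to 23.5 CPM against 0.00 to 1.73 CPM and a log2 fold change of 3.64 (adjusted p = 4.61e-16), *AT1G43590* at 1.70 (adjusted p = 4.94e-06) and *CLC-B* at 1.11 (adjusted p = 4.29e-08). *CLC-B* (AT3G27170) is a chloride channel family gene, with 5.98 to 16.5 CPM in *myc2-3* and 1.95 to 5.30 CPM in MYC2–FLAG, and its average was 0.83 without NC −BFO. The last pair stayed under 2-fold. *CIPK1* (AT3G17510), a kinase that acts with calcineurin B-like calcium sensors, had 185, 208 and 259 CPM in *myc2-3* and 67.2, 120 and 177 CPM in MYC2–FLAG, and a log2 fold change of 0.89 (SE 0.07, adjusted p = 4.21e-13). *AT5G06980* had 101.1 to 165 CPM against 57.2 to 90.9 CPM and 0.83 (SE 0.08, adjusted p = 1.90e-10).

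Of the 392 genes called in shoots, 41 were also called in roots, where 274 genes were called (1.3% of those tested). They make up 10.5% of the shoot calls and 15.0% of the root calls, and 40 of the 41 had the same direction. The exception, *AT5G10570*, had 1.06 in shoots and -1.66 in roots. Genes called lower in shoots were below 0 in roots in 146 of 185 cases (78.9%), and genes called higher were above 0 in 114 of 207 (55.1%), beside 50.3% of all genes with the same sign. The effect differed between the organs by at least 2-fold for 419 genes (1.99%), 146 of which were called in shoots.

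Clock genes differed in roots as well, and mostly less. *LHY* was higher in roots by 2.83 (SE 0.14, adjusted p = 9.01e-19), with no detectable difference from shoots (-0.42, adjusted p = 0.306). *CCA1* was higher in roots by 2.09 (SE 0.14, adjusted p = 1.01e-14), more than in shoots, with a difference of -0.92 (SE 0.19, adjusted p = 4.34e-04). *LNK1*, under the limit in both organs, also rose more in roots, with a difference of -0.28 (SE 0.08, adjusted p = 0.0125). In roots 2 clock genes were called higher and 4 lower. *FKF1* fell by 1.6 and *ELF4* by 1.86 in roots, differences from shoots of -2.79 (SE 0.19, adjusted p = 2.51e-14) and -2.54 (SE 0.43, adjusted p = 1.43e-05). *PRR5* fell by 0.93 and *BBX8* by 0.99 there, each under the limit. Called differences were then ranked for genes that did not overlap in shoots and averaged 50 or more counts. *ELF4*, without overlap but averaging only 15.2 counts per library, was left out by this limit. The 5 largest negative differences so ranked belonged to *ACA8* at -2.65, *AT2G21130* at -1.93, *AT5G23240* at -1.88, *AT3G16180* at -1.63 and *PRR3* at -1.46. *AT3G16180*, a transporter of the major facilitator superfamily, had 5.90 to 15.2 CPM in *myc2-3* shoots and 15.9 to 31.9 CPM in MYC2–FLAG shoots. It fell by 1.397 there (SE 0.11, adjusted p = 2.68e-13) and had 0.23 (adjusted p = 0.12) in roots.

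**Figure D5:**
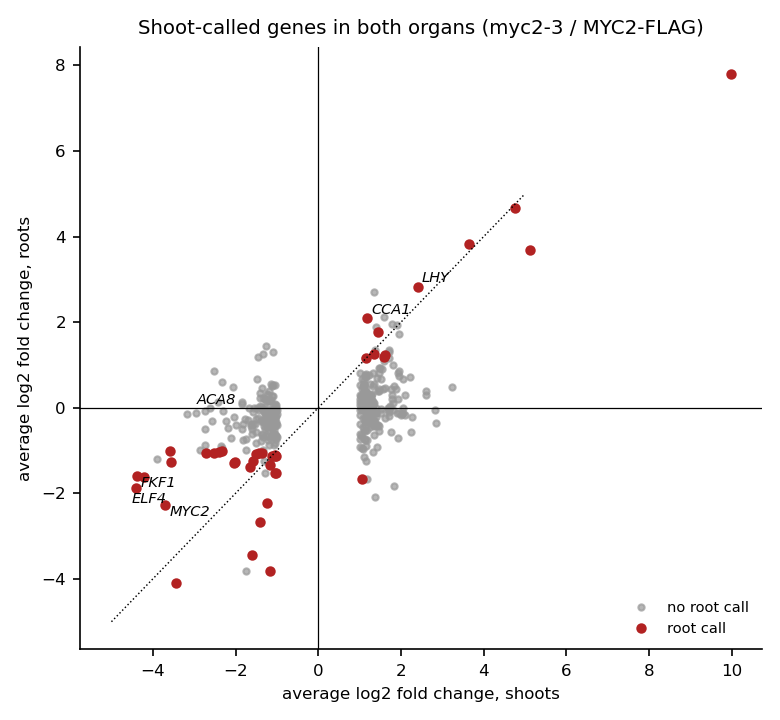
Average log2 fold change of *myc2-3* over MYC2–FLAG in shoots (x axis) and roots (y axis) for the 392 genes called in shoots, with the 41 also called in roots in red and the dotted line marking equal effects. *ACA8* lies close to 0 in roots, *LHY* close to the line, and *AT2G28240* farthest to the upper right.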

How the data were processed

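Shoots and roots of both genotypes were sequenced once, with 3 biological replicates per group. The authors used TopHat2 to map reads to TAIR10 and HTSeq to count them on exons in a strand-specific way, and deposited raw counts without normalization for 32678 gene identifiers. The 5 summary lines of each table were not used. The authors' methods state that in many *myc2-3* samples most reads came from a latent virus, and report this for no MYC2–FLAG sample. From the clustering of samples the authors judged that plant expression was not significantly altered. Virus reads are not analysed here, and the part of the virus in the genotype effect was not tested. Names were matched by locus to the TAIR10.1 annotation for 31912 identifiers, and because the builds differ no coordinates are printed. Promoter sequences are from that RefSeq assembly, and none were read for organellar genes.

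Genes with more than 100 counts over the 48 libraries were kept. Counts were scaled by TMM and fitted with edgeR 4.0.16 (R 4.3.3) by quasi-likelihood with 16 group means, and Benjamini-Hochberg adjustment ran over 21098 genes. Calls needed an adjusted p under 0.05 and a log2 fold change of 1 or more in size. The SE was taken as the size of the log2 fold change over the root of the F statistic. Variance shares came from a permutational multivariate analysis (adonis2 of vegan 2.7.1, sequential terms) on log2 CPM with a prior count of 2. Counts were also simulated with an average shoot effect of 2 on the log2 scale in 200 of 21058 genes. The fit recovered 200 of them and called 0 of the remaining genes. Every simulated gene had the same dispersion, so recovery was not tested where variability differs between genes. Recovery was not tested for effects near the limit of a call, and not separately for rare transcripts or effects that differ among conditions. Replicate numbers did not pair the libraries. A p-value measures the spread between replicate libraries of a group, and floors cover counting error only.

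The genes named were *MYC2* and 5 genes on each side of it, the 12 largest rises and falls among called genes that did not overlap and averaged 50 or more counts, up to 4 called members of each list with the other clock members, and the 5 largest differences between shoots and roots in each direction under the same conditions. Members beyond these are said to be chosen after their values were seen or are list members given as values. The comparison, the lists and the rule were chosen with earlier results of these data known. The results were recomputed with DESeq2 1.42.0, limma-voom (limma 3.58.1), other scaling and filters, shoots alone, other condition terms, glmTreat, thinned libraries, organellar genes left out, a replicate block, and each condition or library left out. The legacy fit and the count limited to genes with a mean count of at least 50 were added after seeing the data.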

Additional observations from a re-analysis of the deposited data

Results flagged for a closer look

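The average genotype effect differed between shoots and roots by at least 2-fold for 419 genes, by the test of the difference in 1 fit. Only genes named by the rule are listed here, so other genes in the text may pass the same limits. The negative differences (shoot minus root, log2 scale) were -2.79 for *FKF1*, -2.65 for *ACA8*, -2.54 for *ELF4*, -2.54 for *IGMT5*, -1.93 for *AT2G21130*, -1.88 for *AT5G23240*, -1.63 for *AT3G16180*, -1.61 for *VSP2*, -1.46 for *PRR3*, -1.44 for *MYC2*, -1.39 for *PRR5*, -1.36 for *COL9*, -1.33 for *BBX8*, -1.23 for *PWD* and -1.15 for *CHIB*. Positive differences were found for *BIP3* at 1.73 and for *AT4G12490* at 3.67. Leaving 1 library out moved the shoot averages of *AT4G12490* and *VSP2* across the limit of a call.

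The genotype effect within shoots differed among the 4 conditions for 12140 genes at the adjusted p alone, and for 25 of the 31 genes named by the rule. These tests rest on the condition labels as given, and what part the labels play in them was not tested.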

How the results depend on the processing

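Replicate numbers did not pair the libraries, since the correlations of same-numbered libraries over 12 pairs ran from -0.237 to 0.0631, and with a replicate block 394 genes were called, 209 higher and 185 lower. Leaving out 1 library at a time gave 367 to 415 calls, and *MYC2* stayed between -3.82 and -3.55. limma-voom called 398 genes, of which 340 were among the main calls, and DESeq2 called 446, of which 370 were. With organellar genes left out 371 genes were called (188 higher, 183 lower), and all 371 were among the main calls. No scaling moved the median of all genes by more than 0.03.

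With genotype as the only term 180 genes were called (61 higher, 119 lower), and with genotype plus condition 215 (81 higher). glmTreat against a 2-fold change left 68 calls (15 higher, 53 lower), 17 of the 28 genes called among those named and 10 list members, as well as 32 calls in roots and 16 between the organs. Counting only genes with a mean count of at least 50 left 162 (54 higher, 108 lower). Averages over 3 conditions gave 773 calls without NC −BFO (539 higher), 630 without NC +BFO (332 higher, 298 lower) and 906 without LP +BFO (509 higher, 397 lower). The list members called were 15 with genotype as the only term and 55 without LP +BFO. *PDF1.2* turned to 0.27 without NC −BFO, and without LP +BFO *AT4G12490* turned to -0.66 and *GSTU1* to 0.86. The cause of these changes was not tested.

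Rare transcripts limit the genes called higher, 81 of which had a mean count under 10, against 42 of those called lower. Genotype and sequencing project cannot be told apart under any setting.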

Other observations

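Groups outside the fixed lists, taken by product name after their values were seen, showed further shoot differences. Of 23 tested genes annotated as cold-regulated, low temperature-induced or dehydrin, 7 were called lower and 0 higher by edgeR, and 18 were lower and 0 higher at the adjusted p alone, with a median log2 fold change of -0.61, beside 0.877% of all genes called lower and 14.9% lower at the adjusted p alone. *COR27*, a night-phased regulator tied to the clock and to cold, fell furthest, at -3.56 (SE 0.18, adjusted p = 6.77e-19), followed by *KIN2* at -2.42 and *LTI78* at -1.85. The chloroplast-protecting proteins *COR15B* and *COR15A* had -1.78 and -1.35, the latter -0.32 without LP +BFO. Of 26 tested B-box and CONSTANS-like genes 5 were called higher and 4 lower, beside 0.981% and 0.877% of all genes. *BBX29* at 1.49, *COL2* at 1.46, *BBX16* at 1.41, *BBX32* at 1.39 and *BBX19* at 1.16 were higher, and *COL9*, *BBX8*, *BBX13* at -1.50 and *AT2G47890* at -1.16 were lower. Without NC −BFO none of the 5 stayed called in edgeR, at -0.25, 0.43, 0.48, 0.26 and 0.16 in the same order, and without LP +BFO *AT2G47890* had -0.85.

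Clock-linked genes outside the clock list, picked in the same way, were *GRP7*, an RNA-binding protein under clock control, at -2.33 (SE 0.07, adjusted p = 7.50e-26), with 149 to 1815 CPM in *myc2-3* and 1337 to 3684 CPM in MYC2–FLAG. Its relative *CCR1* had -1.12 (SE 0.05, adjusted p = 3.48e-20) without overlap, at 150 to 279 CPM against 369 to 519 CPM. *RVE1*, a morning MYB-like factor, had 1.53 (SE 0.12, adjusted p = 1.14e-13), and *AT3G12320* had 1.61 (SE 0.08, adjusted p = 1.13e-18). Both turned sign between NC −BFO, at 4.34 and 4.62, and LP +BFO, at -0.80 and -1.53, and without NC −BFO they had 0.59 and 0.61, under the limit. Without that condition *CCR1* had -0.98. *PHS2*, a cytosolic glucan phosphorylase, was lower without overlap at -1.19 (SE 0.07, adjusted p = 6.77e-17) and had -0.82 without LP +BFO, and *QQS*, a small protein linked to starch content, was higher at 1.599 (SE 0.18, adjusted p = 6.19e-10), with 1.19 to 2.30 in the 4 conditions.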
